A study of Mus musculus with 6 samples.

Results

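Collagen chains are folded inside the endoplasmic reticulum (ER) by a set of enzymes and chaperones, and 10 genes of this machinery were followed in mouse choroid ECs between postnatal day 5 (P5) and postnatal day 30 (P30). They were taken by gene symbol and not by a cut on their values, though earlier results of these data were known at the time. All 10 were found among the 22026 symbols of each sample. They are P4ha1, P4ha2 and P4hb, which encode prolyl 4-hydroxylase, the lysyl hydroxylase genes Plod1, Plod2 and Plod3, the genes Lepre1 (now P3h1), Crtap and Ppib of the prolyl 3-hydroxylase complex, and Serpinh1, which encodes the chaperone HSP47. RNA came from choroid ECs of 129/B6 mice (males and females at P30), labelled in the living animal with injected antibody to VE-Cadherin, an endothelial junction protein, and then sorted from dissected RPE/choroid. There were 3 independent isolations at P5 and 3 at P30, with 7 animals pooled in each, so animals were not measured singly. The study compares the ages because the barrier between retina and choroid matures between them. The values are the authors' FPKM, read fragments scaled to transcript length and library size, so levels of different genes can be set side by side.

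Newly made collagen chains are modified before they wind into a triple helix. Prolyl 4-hydroxylase turns prolines into 4-hydroxyproline, which keeps the helix stable at body temperature, and it needs oxygen, iron, 2-oxoglutarate and ascorbate. Lysyl hydroxylases prepare lysines for sugars and for the cross-links that lysyl oxidases form outside the cell, and HSP47 binds the finished helix on its way to the Golgi. ECs use this machinery mainly for the collagens of their basement membrane, and fibroblasts use it for fibrillar collagens.

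The label of the cells was checked with endothelial genes, chosen as defining markers. Cdh5, which encodes VE-Cadherin, had a mean FPKM of 2971 ± 95.4 at P5 and 1885 ± 52.4 at P30 (SD, n = 3), and was lower in every P30 isolation (log2 difference -0.66, adjusted p = 0.00205 from limma, not called for its fold). Pecam1 had means of 1611 and 1421 FPKM (-0.19) and Kdr of 2488 and 3389 (0.44), and neither was called. The summed FPKM of 10 endothelial markers was between 21327 and 22747 at P5 and between 30156 and 36454 at P30, and Plvap, with means of 4692 and 11590 FPKM, and Emcn, with 3002 and 5523, made up most of the difference. Markers of most other cell types had higher sums at P30. The summed FPKM of 8 RPE markers (7 tested, 6 called higher at P30) was between 91.3 and 178 at P5 and was 3939, 2228 and 554 in the P30 isolations, always given in the order of replicates 1 to 3. That of 7 pericyte markers (none called) was between 497 and 1765 at P5 and 1872, 6290.4 and 3858 at P30, and that of 10 fibroblast markers (2 called) was between 787 and 1265 at P5 and 2007, 4902 and 2841 at P30. Of their defining genes, Rpe65 was listed at 0 in P5 replicates 2 and 3 and Dpt, a fibroblast gene, at 0 in every P5 isolation. Dpt was low at P30 as well, with a mean of 5.15 FPKM. Other genes of these lists were present at P5, with means of 58.2 FPKM for Ttr (RPE) and 108.5 for Dcn (fibroblasts). Sums ran from 85.4 to 175 at P5 and from 311 to 1083 at P30 for smooth muscle, from 15.8 to 27.6 and from 59.0 to 411 for photoreceptors, and from 104 to 473 and from 141 to 1284 for pigment cells. The macrophage list, with 3 of 8 genes called higher at P5, had sums from 609.5 to 901 at P5 and from 326 to 842 at P30. Their part in the results that follow was not tested.

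P4ha2 was the gene of the set that rose, by 3.23-fold, while its sister P4ha1 was not called, and the FPKM of these α subunits of prolyl 4-hydroxylase was more evenly split at P30 than at P5. Serpinh1, the highest of the 10 genes at P5, was 1.92-fold lower at P30 with an adjusted p of 0.000539 from limma, just short of the 2-fold limit. The lysyl hydroxylases and the prolyl 3-hydroxylase complex were not called. A gene was called at an adjusted p (limma, Benjamini-Hochberg over all 12481 genes tested) under 0.01 and at least a 2-fold difference in mean FPKM + 1. All 10 genes passed the minimum for the test, a mean FPKM of at least 5 at either age. Of them, 1 was called higher at P30, against 5.89% of all genes tested, and 0 were called higher at P5, against 5.82%. At an unadjusted p under 0.05 from limma, 2 of the 10 were higher and 4 were lower at P30. Of all 12481 genes tested, 2584 were higher and 3592 lower at that limit. The median difference, P30 minus P5 on the scale of log2(FPKM + 1), was -0.04 over the 10 genes and -0.10 over all genes tested. In bulk RNA, fewer cells that express a gene and less of its RNA per cell cannot be told apart.

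**Figure D1:**
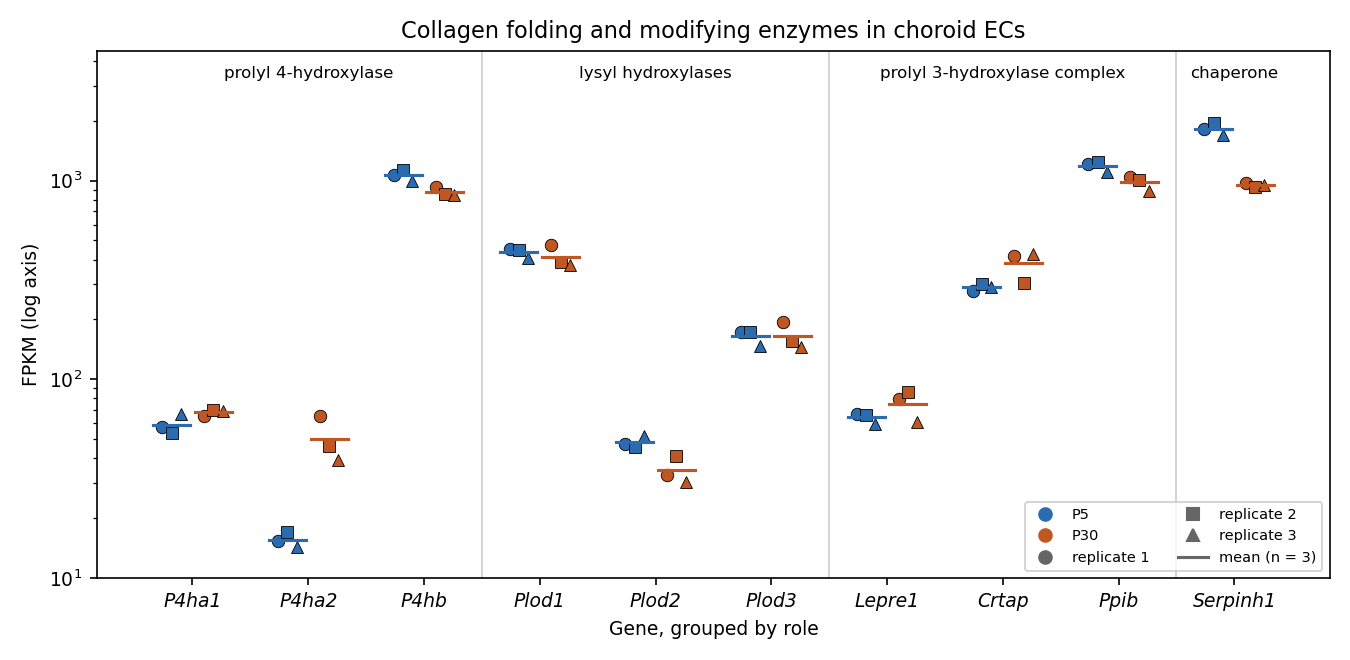
FPKM of the 10 genes (horizontal axis, grouped by role) on a log axis, with 1 point per isolation (P5 blue, P30 orange, marker shape for the replicate) and a line at the mean of 3. P4ha2 lies between 14.2 and 17.0 at P5 and between 39.1 and 65.3 at P30, and Serpinh1 between 1685 and 1954 at P5 and between 926 and 968 at P30.

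The 10 genes were spread over a wide range of levels. At P5 the order of mean FPKM was Serpinh1, Ppib, P4hb, Plod1, Crtap, Plod3, Lepre1, P4ha1, Plod2 and P4ha2, from 1822 down to 15.5. The ranges of neighbours in this order overlapped only for Ppib with P4hb and for Lepre1 with P4ha1. Few genes had a higher mean FPKM at P5 than Serpinh1 (0.401% of those tested), Ppib (0.929%) and P4hb (1.11%). At P30 the order began with Ppib, Serpinh1 and P4hb, whose ranges overlapped from each to the next, and ended with Lepre1, P4ha1, P4ha2 and Plod2, which overlapped in the same way. The summed FPKM of the 10 genes was 5196, 5426 and 4821 at P5, against 4278, 3881 and 3827 at P30. Each P30 sum was below each P5 sum, and Serpinh1 alone made up most of the difference between the means, going from a mean of 1822 ± 134 to 947 ± 21.1 (SD, n = 3).

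Prolyl 4-hydroxylase is built from catalytic α subunits and from β subunits. The α subunits are encoded by P4ha1, P4ha2 or P4ha3, the last not among the 10 genes. P4hb encodes the β subunit, which is also the free enzyme protein disulfide isomerase. P4ha2 (chromosome 11, 53913597 to 53945167 of mm9, forward strand) had an FPKM of 15.25, 17.0 and 14.2 at P5 and of 65.3, 45.9 and 39.1 at P30. Every P30 isolation was far above every P5 isolation, and the P30 isolations were more widely spread. The mean rose from 15.5 ± 1.40 to 50.1 ± 13.6 (SD, n = 3), a log2 difference of 1.60 (SE 0.21, 95% interval 1.10 to 2.10, adjusted p = 0.00164 from limma). Without P5 replicate 3 the difference was 1.55 and the adjusted p from limma was 0.0115, which ended the call and brought the number of the 10 genes called higher at P30 to 0. The order of the P30 isolations in P4ha2 was also that of the summed RPE markers, whose highest P30 isolation was 7.11-fold the lowest, against 1.67-fold in P4ha2. Without P30 replicate 1, the isolation highest in RPE markers, the adjusted p of P4ha2 was 0.00212 from limma and the gene was called, with RPE sums in the other P30 isolations that were also above those at P5. The part of RPE RNA in the difference was not tested.

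P4ha1 (chromosome 10, 58786044 to 58836052 of mm9, forward strand) had 57.3, 53.3 and 66.4 FPKM at P5 and 65.3, 70.2 and 69.3 at P30. P5 replicate 3 lay among the P30 isolations, so the ages overlapped. The log2 difference was 0.21 (95% interval -0.08 to 0.50, adjusted p = 0.214 from limma). P4hb (chromosome 11, 120421612 to 120434567, reverse strand) had 1066, 1133 and 991 FPKM at P5 and 932, 853 and 841 at P30. The ages did not overlap, but the log2 difference of -0.28 (95% interval -0.51 to -0.05) was not called (adjusted p = 0.0558 from limma).

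As a share of the summed FPKM of P4ha1 and P4ha2, P4ha1 made up 79.0%, 75.8% and 82.3% at P5, against 50.0%, 60.5% and 64.0% at P30. The share was lower in each P30 isolation than in any P5 isolation, with means of 79.1% ± 3.26 and 58.1% ± 7.27 (SD, n = 3). An exact permutation test, two-sided, gave p = 0.1, the lowest value possible with 3 isolations an age. A share within a sample does not depend on how samples were scaled to each other. P4ha1 and P4ha2 together had 74.5 ± 5.43 FPKM at P5 and 118 ± 11.2 at P30. Per FPKM of P4ha1 and P4ha2 there were 14.7, 16.1 and 12.3 FPKM of P4hb at P5 and 7.14, 7.34 and 7.76 at P30. The transcript of the β subunit thus exceeded theirs in every isolation, and by less at P30. These shares, sums and ratios leave out P4ha3, with 9.61, 8.60 and 12.9 FPKM at P5 and 0 in every P30 isolation. Counting P4ha3 would lower the P4ha1 share at P5 only, and so narrow the difference between the ages.

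**Figure D2:**
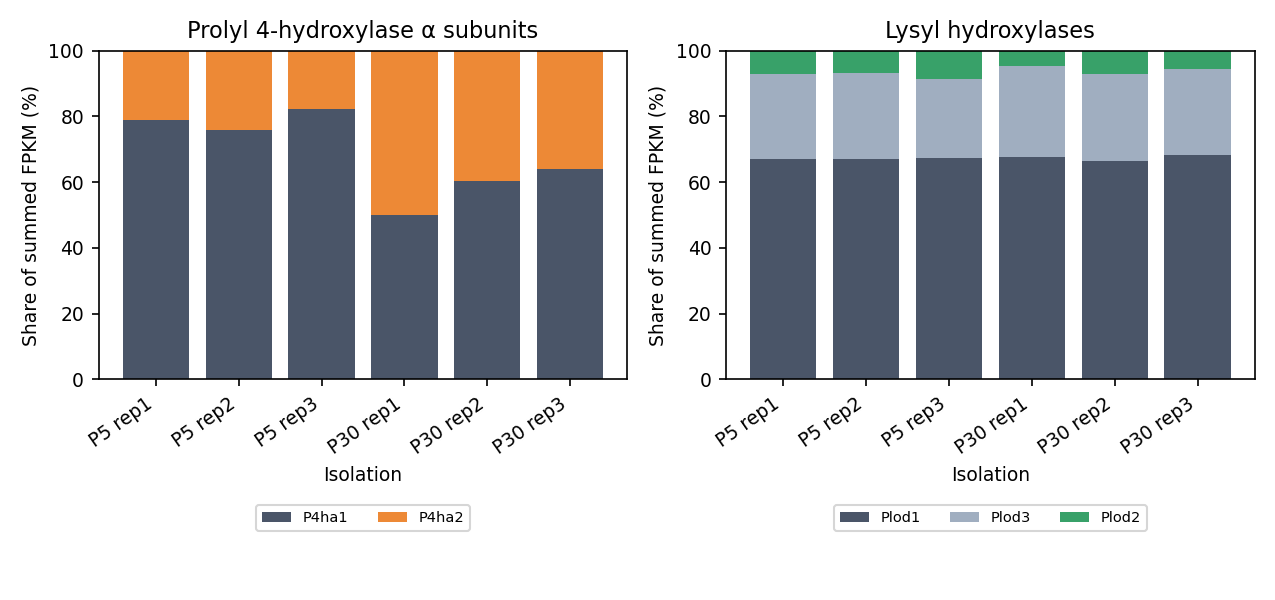
Shares of the summed FPKM (vertical axes, %) in each isolation for the α subunits P4ha1 and P4ha2 (left) and for the lysyl hydroxylases Plod1, Plod3 and Plod2 (right). P4ha1 takes between 75.8% and 82.3% at P5 and between 50.0% and 64.0% at P30, and Plod1 stays between 66.4% and 68.2% in all 6 isolations.

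P4ha1 and P4ha2 are known targets of the hypoxia-inducible factors (HIFs), whose core binding letters are ACGTG or GCGTG, and the bases before their starts are shown with those of Serpinh1 to set the gene that rose beside the gene that did not and the gene that was lower. The sequences are the 250 bases upstream of the start in RefSeq's annotation of GRCm38.p6, printed in the direction of the gene, with each match of either motif on either strand in capitals. They lie at chr10:59323046-59323295 (P4ha1, forward strand), chr11:54100674-54100923 (P4ha2, forward strand) and chr7:99353240-99353489 (Serpinh1, reverse strand).
P4ha1: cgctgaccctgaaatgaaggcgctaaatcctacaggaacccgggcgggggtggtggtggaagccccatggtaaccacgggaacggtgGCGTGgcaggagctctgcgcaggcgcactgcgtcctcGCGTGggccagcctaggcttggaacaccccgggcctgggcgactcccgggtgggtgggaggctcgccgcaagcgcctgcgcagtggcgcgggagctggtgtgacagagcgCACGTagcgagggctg
P4ha2: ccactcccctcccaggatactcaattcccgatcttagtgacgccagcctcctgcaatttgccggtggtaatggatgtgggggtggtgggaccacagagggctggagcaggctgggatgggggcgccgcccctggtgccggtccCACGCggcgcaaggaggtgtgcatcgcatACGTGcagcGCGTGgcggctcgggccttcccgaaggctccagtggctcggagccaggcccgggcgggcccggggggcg
Serpinh1: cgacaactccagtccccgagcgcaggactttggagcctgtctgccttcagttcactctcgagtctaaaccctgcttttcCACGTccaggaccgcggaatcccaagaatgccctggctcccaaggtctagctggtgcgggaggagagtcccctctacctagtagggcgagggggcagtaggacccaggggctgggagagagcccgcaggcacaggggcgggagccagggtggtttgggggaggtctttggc
P4ha2 held 3 matches, of which ACGTG began 78 bases before the start and GCGTG 107 and 69 bases before it. P4ha1 also held 3, with GCGTG beginning 163 and 126 bases and ACGTG 16 bases before the start, and Serpinh1 held 1, an ACGTG that began 171 bases before it. So P4ha1 and P4ha2, which differed in their change with age, held the same number of matches. RefSeq's table had a start for 9 of the 10 genes, all but Plod2, and each of the 9 held at least 1 match. Of all 32851 promoters in the table, 38.6% held either motif in the same 250 bases, 16.6% ACGTG and 28.2% GCGTG, without matching on base composition. A match is a description of the letters and does not show binding.

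Serpinh1 encodes HSP47, a chaperone that binds collagen and little else. Serpinh1 (chromosome 7, 106493885 to 106501740 of mm9, reverse strand) had 1826, 1954 and 1685 FPKM at P5 and 968, 926 and 947 at P30. Each P30 isolation was below each P5 isolation, and the P30 isolations were within 1.05-fold of each other. The part of other cell types in the difference was not tested. The log2 difference was -0.94 (SE 0.10, 95% interval -1.17 to -0.72, adjusted p = 0.000539 from limma). Of all genes tested, 10.7% were lower at P30 at an adjusted p under 0.01 when no limit was set on the fold. The gene was called with quantile normalization (-1.33, adjusted p = 0.000195 from limma) and with FPKM rescaled to the same sum in every sample (-1.11, adjusted p = 0.000293 from limma). That rescaling moved the median of all genes by -0.17 and the share of calls that were higher at P30 from 50.3% to 37.1%. Quantile normalization moved the median by 0.018, but it moved genes by level. The log2 differences of P4hb and Ppib, next to Serpinh1 in level at P5, went from -0.28 each to -0.55 and -0.57. Those of Plod1, Crtap and Plod3 also moved down. Those of the lower Lepre1, P4ha1, Plod2 and P4ha2 moved up, as in P4ha1 from 0.21 to 0.28. The part of this shift with level in the call of Serpinh1 was not tested. Measured from the median of all genes tested, Serpinh1 was lower by a log2 difference of -0.84.

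HSP47 serves the collagens that a cell makes, so the summed FPKM of 32 collagen chain genes was set beside it. It was 12130.2, 12079 and 11913 at P5, against 6058, 10436 and 6371 at P30. Most of the P5 sum came from Col4a1, Col4a2, Col15a1 and Col18a1, with P5 means of 4241, 2644, 2077 and 1301 FPKM. Their P30 means were 1780, 1399, 834 and 308 FPKM, so the mix of chains in the sum differed between the ages. P30 replicate 2, the isolation highest in pericyte and fibroblast markers, was also the highest in collagen at P30. Col1a1, Col1a2 and Col3a1 are counted in both the fibroblast and the collagen sum, so these sums are not independent. The same isolation was the lowest in Serpinh1, though the P30 isolations differed by no more than 1.05-fold. There were 15.1 ± 1.02 FPKM of Serpinh1 per 100 FPKM of collagen chains at P5 (SD, n = 3), against 13.2 ± 3.82 at P30. P30 replicate 2, at 8.87, lay below every P5 value and the other P30 isolations lay within the P5 range.

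**Figure D3:**
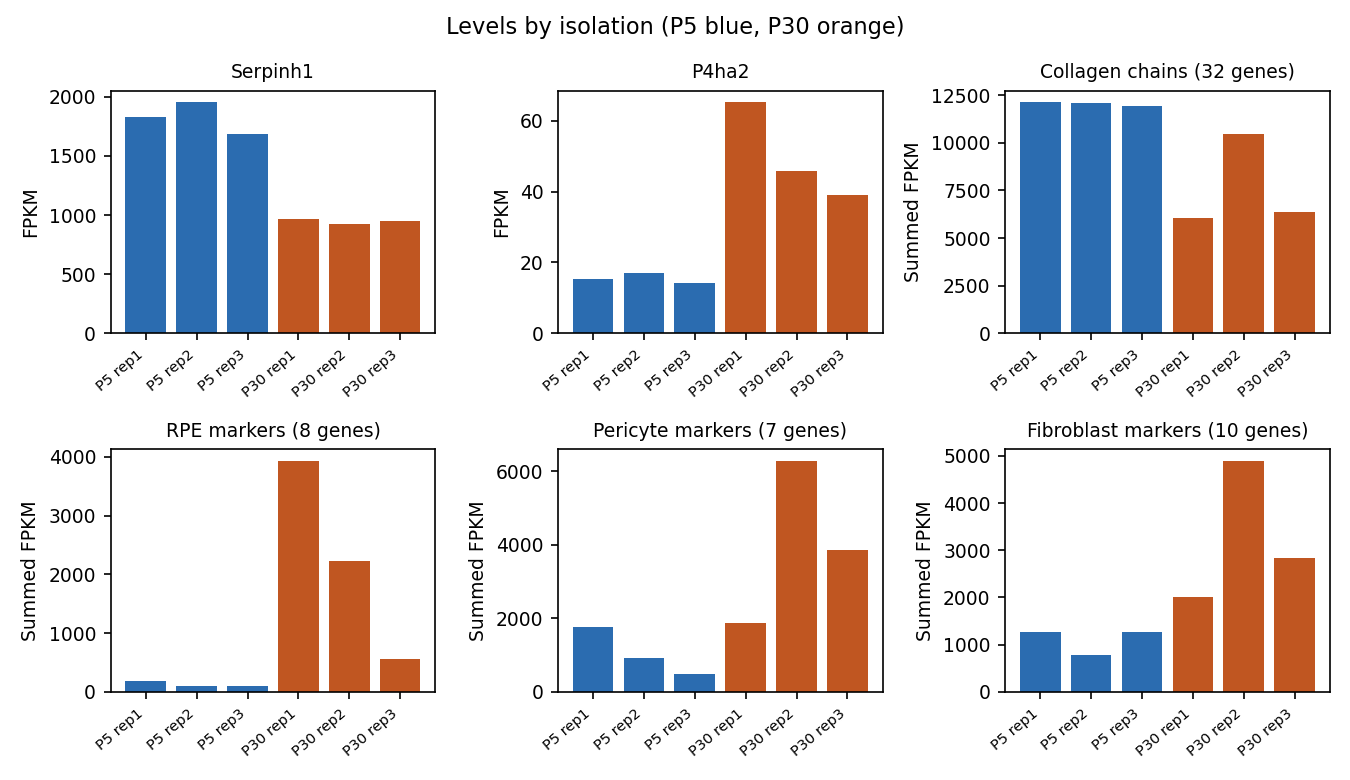
FPKM of Serpinh1 and P4ha2 and summed FPKM of 32 collagen chains and of the RPE (8 genes), pericyte (7 genes) and fibroblast (10 genes) marker lists, in each isolation (bars, P5 blue, P30 orange, axes from 0). Serpinh1 lies between 926 and 968 in the P30 isolations, and the marker sums are highest in P30 replicate 1 (RPE, 3939) or P30 replicate 2 (pericytes, 6290.4, and fibroblasts, 4902). The part of other cell types in the levels of either gene was not tested.

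The lysyl hydroxylases were not called at either age. Plod1, which acts on lysines within the helix, was the highest of the family. Plod1 (chromosome 4, 147283862 to 147310876 of mm9, reverse strand) had 452, 445 and 409.6 FPKM at P5 and 476, 389.6 and 377 at P30. The highest value was P30 replicate 1 and the ages overlapped (log2 difference -0.08, 95% interval -0.35 to 0.19, adjusted p = 0.610 from limma). With FPKM rescaled to the same median the difference was 0.01.

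Plod3, which also carries glycosyltransferase activity and is needed for type IV collagen, lies on chromosome 5 (137462889 to 137472518, forward strand). It had 173, 173 and 147 FPKM at P5 and 194, 156 and 146 at P30, with P30 replicate 1 above and the other P30 isolations within or just below the P5 values. The log2 difference was 0.00125 (95% interval -0.32 to 0.32, adjusted p = 0.995 from limma), and its sign turned under several settings. In the annotation of mm9 the gene overlaps Znhit1 on the other strand, and the library kit is not described as stranded, so reads of the shared stretch cannot be told apart. Znhit1 had a mean FPKM of 59.7 at P5 and 82.2 at P30.

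Plod2 hydroxylates lysines in the ends of fibrillar collagen, outside the helix, and so sets the type of cross-link. Plod2 (chromosome 9, 92437061 to 92503266, forward strand) had 47.1, 45.7 and 51.55 FPKM at P5 and 32.8, 41.1 and 30.4 at P30. Each P30 isolation was below each P5 isolation, with P30 replicate 2 the nearest. The log2 difference was -0.47 (SE 0.16, 95% interval -0.83 to -0.10, adjusted p = 0.0488 from limma), which is not a call. At an adjusted p under 0.05 with no fold limit, Plod2 and Serpinh1 were the genes of the set that were lower, against 22.4% of all genes tested, and P4ha2 was the gene that was higher, against 16.1%. Plod2 made up 7.00%, 6.88% and 8.47% of the summed FPKM of the 3 lysyl hydroxylases at P5 and 4.67%, 7.01% and 5.49% at P30, and the ages overlapped (p = 0.3, exact permutation test, two-sided).

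The prolyl 3-hydroxylase complex joins the enzyme encoded by Lepre1 to the cartilage-associated protein (Crtap) and to cyclophilin B (Ppib), which turns peptide bonds before proline and so speeds folding. Lepre1 (chromosome 4, 118905520 to 118921580 of mm9, forward strand) had 66.7, 66.3 and 59.55 FPKM at P5 and 79.4, 85.9 and 60.8 at P30. P30 replicate 3 lay within the P5 range and the other P30 isolations above it (log2 difference 0.22, 95% interval -0.14 to 0.57, adjusted p = 0.295 from limma).

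Crtap (chromosome 9, 114284252 to 114299793, reverse strand) had 277, 301 and 290.4 FPKM at P5 and 418, 304 and 429 at P30. The ages did not overlap, but P30 replicate 2 was barely above P5 replicate 2. The log2 difference was 0.39 (95% interval 0.05 to 0.72, adjusted p = 0.0677 from limma), and without P30 replicate 2 it was 0.55 (adjusted p = 0.00683 from limma), still under 2-fold. In the annotation Crtap overlaps the long noncoding RNA 4930520O04Rik on the other strand.

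Ppib (chromosome 9, 65907976 to 65914436, forward strand) had 1216, 1237 and 1105 FPKM at P5 and 1048, 1009 and 887 at P30. The ages did not overlap, and the log2 difference was -0.28 (95% interval -0.52 to -0.03, adjusted p = 0.0734 from limma). Ppib overlaps Snx22 on the other strand, whose mean FPKM was 3.25 at P5 and 5.85 at P30. Per FPKM of Lepre1 there were 18.5 ± 0.228 FPKM of Ppib at P5 and 13.2 ± 1.41 at P30 (SD, n = 3), and 4.52 ± 0.365 and 5.28 ± 1.76 FPKM of Crtap.

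P4hb and Ppib, the genes of the set with broad folding roles in the ER beside collagen, thus had log2 differences of -0.28 each. With quantile normalization the log2 difference of P4hb was -0.55 and that of Ppib -0.57 (adjusted p = 0.00288 and 0.00266 from limma), and neither reached 2-fold. Over the 10 genes, every P30 isolation lay above every P5 isolation in 2 (P4ha2 and Crtap), against 22.0% of all genes tested, and below in 4 (P4hb, Plod2, Serpinh1 and Ppib), against 33.0%. In 5 genes (P4ha2, P4hb, Plod1, Plod3 and Ppib) P30 replicate 1 was the highest P30 isolation and P30 replicate 3 the lowest. The summed RPE, photoreceptor and pigment cell markers had this same order. How many of all genes tested had it was not counted, so the 5 genes cannot be set against a background. The part of these cells in the values of the 5 genes was not tested.

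**Figure D4:**
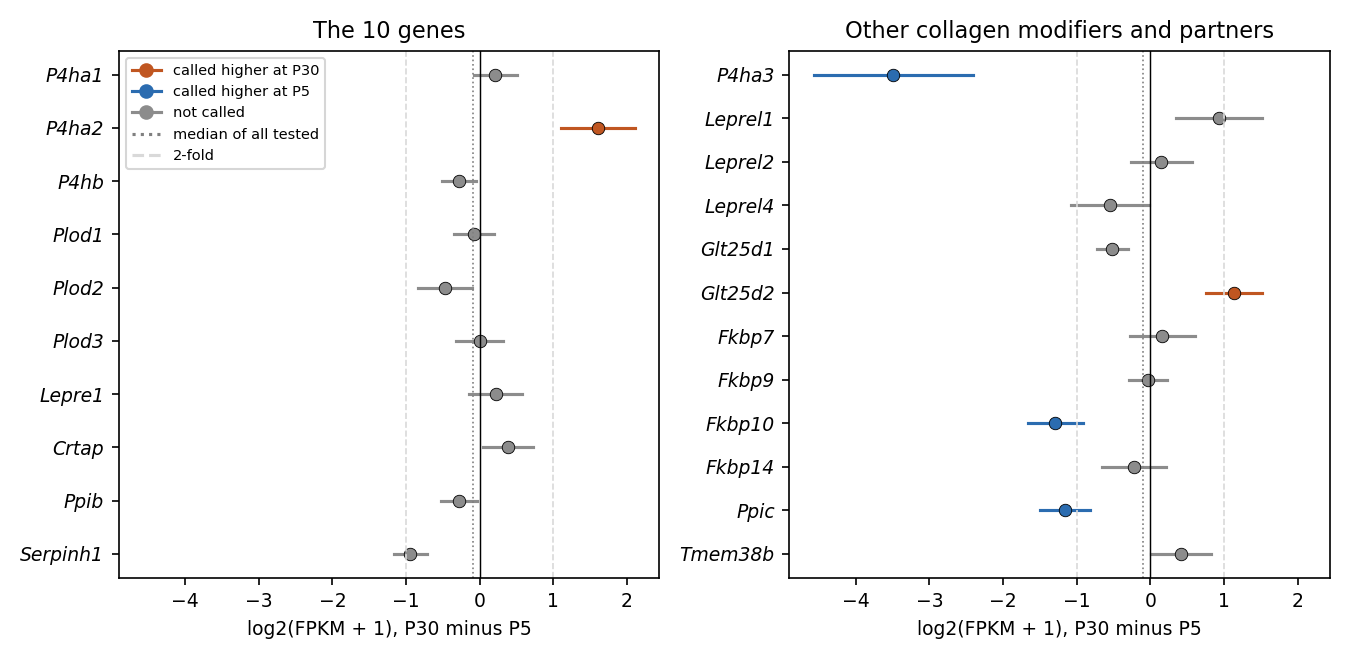
Difference in log2(FPKM + 1), P30 minus P5, from limma with 95% intervals, for the 10 genes (left) and 12 other collagen modifiers and partners (right). Colours mark calls, the dotted line is the median of all genes tested (-0.10) and dashed lines mark 2-fold. P4ha2 (1.60) is the call on the left, and P4ha3 (-3.49), Fkbp10 (-1.29), Ppic (-1.16) and Glt25d2 (1.14) are those on the right.

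Among 12 other genes that modify or fold collagen in the ER, all tested, 3 fell (P4ha3, Fkbp10 and Ppic), 1 rose (Glt25d2) and 8 were not called, with a median log2 difference of -0.13. P4ha3, a further prolyl 4-hydroxylase α subunit, had 9.61, 8.60 and 12.9 FPKM at P5 and was listed at 0 in all P30 isolations (adjusted p = 0.00154 from limma), and the call was lost without any of the P5 isolations (adjusted p from 0.0117 to 0.0185, limma).

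Fkbp10 encodes FKBP65, a prolyl isomerase that works with HSP47 on collagen. It went from 398 ± 28.8 to 164 ± 33.9 FPKM (SD, n = 3), and each P30 isolation was below each P5 isolation (log2 difference -1.29, SE 0.16, adjusted p = 0.00117 from limma). Ppic, a cyclophilin related to Ppib, fell from 1310.5 ± 37.0 to 595 ± 110 FPKM (log2 difference -1.16, SE 0.14, adjusted p = 0.00119 from limma). Ppic was above Ppib in each P5 isolation and below it in each P30 isolation.

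Glt25d2, a collagen galactosyltransferase now named Colgalt2, rose from 67.55 ± 7.54 to 151 ± 28.6 FPKM (log2 difference 1.14, SE 0.16, adjusted p = 0.00202 from limma). The call was lost without P5 replicate 2, P5 replicate 3 or P30 replicate 3 and with FPKM rescaled to the same sum. Its relative Glt25d1 (Colgalt1), named here after its values were seen, had the larger FPKM, 325 ± 11.6 at P5 and 227 ± 12.8 at P30 (log2 difference -0.52, adjusted p = 0.00464 from limma, not called for its fold). Fkbp9 had 324 ± 5.02 and 319 ± 41.0 FPKM (log2 difference -0.03), and its sign turned with FPKM rescaled to the same median (0.06) and without P30 replicate 1 (0.05).

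The chains that the machinery acts on were of different kinds. Of 15 tested chains of basement membrane and other collagens outside the fibrils, 5 rose and 3 fell, and the median log2 difference was 1.23. The genes that fell had high P5 means, Col4a1 4241 FPKM (log2 difference -1.28), Col15a1 2077 (-1.32) and Col18a1 1301 (-2.07). Col4a2, with means of 2644 and 1399 FPKM, was also lower in each P30 isolation. Its log2 difference was -0.93 (adjusted p = 0.00311 from limma), not called for its fold. The largest rises were from low P5 means, Col4a3 2.82 FPKM (2.80), Col8a2 7.02 (2.71) and Col4a4 2.40 (2.19). The calls of Col4a1, Col4a3, Col8a2 and Col4a4 were lost when some isolations were left out, among them P5 replicate 2 for each of the 4, with adjusted p of 0.0108, 0.0198, 0.0189 and 0.0292 (limma). Of 11 tested chains of fibrillar collagens and of collagens on fibrils, 0 were called in either direction by limma. At an unadjusted p under 0.05, 3 were higher and 1 lower, against 2584 and 3592 of all 12481 genes tested. Col1a1, Col1a2 and Col3a1 had wide P30 ranges that held P5 values, with log2 differences of 0.78, 0.67 and 0.75, and all 3 were highest in P30 replicate 2. They also belong to the fibroblast marker list.

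After folding, collagen is carried out of the ER in large COPII vesicles, trimmed by proteases such as BMP1 and cross-linked by lysyl oxidases. Of 17 tested genes of these steps, 3 fell, 1 rose and 13 were not called, with a median log2 difference of -0.14. Loxl2, a lysyl oxidase, fell from 202 ± 10.6 to 80.0 ± 15.8 FPKM (log2 difference -1.34, SE 0.16, adjusted p = 0.000974 from limma). The other lysyl oxidases, named after their values were seen, did not share this fall. Loxl1 went from 8.72 to 28.9 FPKM (log2 difference 1.67, adjusted p = 0.0113 from limma, not called). Lox and Loxl3 overlapped between the ages, and Loxl4 was too low to be tested. The proteases Tll1 (-1.33) and Bmp1 (-1.19) fell, while Pcolce, which enhances BMP1, rose (1.41), highest in P30 replicate 2. The calls of Bmp1, Tll1 and Pcolce were lost when any of several isolations was left out, with adjusted p up to 0.0327, 0.0251 and 0.0377 (limma). The COPII genes Sar1a, Sec13 and Sec31a were not called, with log2 differences of 0.27, -0.14 and -0.27.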

How the data were processed

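RNA of 6 samples (3 isolations at P5, 3 at P30) was sequenced on an Illumina HiSeq2000. Reads were mapped by the authors with TopHat (mm9), and the deposited FPKM came from CuffLinks, corrected for GC content and scaled to the upper quartile. Per the labels CASAVA 1.8.2 was used. Other tool versions and the gene annotation are not given in the sources used here. The depth is unknown, so no counting interval or floor is given.

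The FPKM values were transformed to log2(FPKM + 1), which understates the change of low genes, and tested with limma 3.58.1 (R 4.3.3, moderated by eBayes along the mean level, without a block). The 12481 genes tested reached a mean FPKM of 5 at either age. Intervals are 95%. Shares were compared with exact permutation tests (scipy 1.17.1). The authors' own DESeq2 test used read counts, which are not used here. Positions are those of GENCODE on mm9.

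The members and gene lists were chosen with earlier results of these data known. Named beside the 10 genes were, in each list of related genes, the 3 largest called rises and falls and the 3 highest means. In each marker list they were the 3 highest P30 means, of which some were printed. Outside this rule were Cdh5, Pecam1, Kdr and Dpt, printed as defining markers, and the genes said to be named after their values were seen. Genes that overlap a member and nearest profiles were also printed. P-values from limma set the difference between the ages against the spread between isolations, moderated over all genes tested. Those of the shares come from exchanging ages among the isolations. Animals were pooled, so neither takes in the spread between animals. Alternatives were other pseudocounts, minimum FPKM values and scalings, no trend, array weights, other limits, a replicate block and each isolation left out.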

Additional observations from a re-analysis of the deposited data

How the results depend on the processing

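The 10 genes were recomputed under 19 alternatives, and of the 190 differences 179 kept their direction and their side of the limits, 1 lost a call, 4 gained one and 6 turned sign. Alternatives in the minimum FPKM, the trend, the block or the limits leave each log2 difference as it was by construction. Under these only a call could change, so the count of 179 overstates how far directions were tried. The number called higher at P30 was 1, with a range of 0 to 1 when an isolation was left out, and 0 came without P5 replicate 3. The number called higher at P5 was 0, and it was 1 (Serpinh1) with quantile normalization, 1 with FPKM rescaled to the same sum and 2 at an adjusted p under 0.05 with no fold limit. P4ha2 had log2 differences between 1.21 and 1.76 under all alternatives, and Serpinh1 between -1.33 and -0.85. The sign of Plod3 turned with quantile normalization (-0.0239), with FPKM rescaled to the same sum (-0.17), with array weights (-0.0840), and without P5 replicate 3 (-0.0754) or P30 replicate 1 (-0.120, with 0.0862 the highest value with an isolation left out), and that of Plod1 with FPKM rescaled to the same median (0.0144). The sign of Fkbp9 turned with that rescaling (0.0636) and without P30 replicate 1 (0.04996, against a lowest value of -0.129 with an isolation left out), and that of Hspa5 with quantile normalization (-0.0910). In the related lists together, 12 genes were called higher at P30 and 9 higher at P5. At an adjusted p under 0.05 with no fold limit these counts were 21 and 20, and with an isolation left out they ran from 3 to 16 and from 5 to 13. Over all genes, the counts of 735 and 726 became 2011 and 2794 under the looser limits, and fell to 396 higher at P30 without P5 replicate 3 and to 291 higher at P5 without P5 replicate 2. The cause was not tested.

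When replicate numbers entered as a block, calls of the 10 genes were unchanged (1 higher at P30, 0 higher at P5), and 7 genes of the related lists were called higher at P30. The shares kept their differences with the pairing, -20.9 percentage points for P4ha1 (exact permutation within numbers, p = 0.25, the smallest that 3 pairs allow) and -1.73 for Plod2 (p = 0.5). Correlations of the deviations ran from -0.0905 to -0.0305 for same-numbered isolations and from -0.0273 to 0.104 for the others. With 3 isolations an age, these values cannot show whether same-numbered isolations shared a preparation. The difference in the P4ha1 share was between -23.8 and -16.8 percentage points when an isolation was left out, and that of Plod2 between -2.38 and -1.21. Since the depth is not known, nothing can be said on how far counting error limits low genes such as P4ha3.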

Other observations

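A list of 24 genes held general chaperones and folding enzymes of the ER together with regulators of the unfolded protein response. All were tested, and 4 rose and 0 were called higher at P5 by limma, with a median log2 difference of -0.000369. At an unadjusted p under 0.05, 7 were higher and 9 lower, against 2584 and 3592 of all 12481 genes tested. The largest rises were those of Herpud1 (log2 difference 1.64), Ddit3 (1.46) and Dnajb9 (1.17), of which Dnajb9 encodes a co-chaperone. The calls of Ddit3 and Dnajb9 were lost without P5 replicate 2 (adjusted p = 0.0108 and 0.0132 from limma) or P5 replicate 3 (0.0114 and 0.0137). Atf4, a stress transcription factor, had 868 ± 69.3 FPKM at P5 and 1932 ± 149 at P30 (SD, n = 3) and was the other gene called, but it was not called with quantile normalization (log2 difference 0.82) or with FPKM rescaled to the same sum (0.98). Hspa5 (BiP), the most abundant of them, had 1607 ± 50.4 and 2003 ± 228 FPKM (0.31, not called), and Calr had 1345 ± 132 and 1046 ± 110 (-0.36, not called). Without overlap of the ages, P30 lay above in 9 of the 24 genes, against 22.0% of all genes tested, and below in 10, against 33.0%. Among those below, named after their values were seen and none of them called, were the chaperones and folding enzymes Canx (log2 difference -0.63), Hsp90b1 (-0.39), Pdia3 (-0.38), Pdia4 (-0.62), Pdia6 (-0.70), Hyou1 (-0.38) and Sdf2l1 (-0.74), and Manf (-0.33). Among those above, named in the same way and none of them called, were Pdia5 (0.68), Dnajc3 (0.20), Xbp1 (0.68) and Atf6 (0.23). The Pdia genes thus did not all move in the same direction.

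Of 9 tested genes of oxygen sensing, which like the collagen hydroxylases include prolyl hydroxylases, 1 rose and 0 were called higher at P5 by limma. At an unadjusted p under 0.05, 2 were higher and 3 lower, against 2584 and 3592 of all 12481 genes tested. P4htm, a transmembrane prolyl hydroxylase of the ER, rose from 8.53 ± 3.29 to 33.9 ± 3.58 FPKM (log2 difference 1.93, SE 0.29, adjusted p = 0.00263 from limma), and without P5 replicate 1 the call was lost (adjusted p = 0.011 from limma). Epas1 (HIF-2α) had 1528, 1434 and 1085 FPKM at P5 and 2386, 2741 and 2622 at P30, and Hif1a (HIF-1α) had 551, 396 and 617 and then 255, 369.7 and 303. Neither was called (log2 difference 0.95 and -0.74), though Epas1 was called without P5 replicate 1 (1.05) and with FPKM rescaled to the same median (1.04), and the ages did not overlap in either. Arnt, with means of 134 and 109 FPKM, was not called (log2 difference -0.30, adjusted p = 0.0826 from limma).

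Among all genes tested, the profile nearest to that of P4ha2, by Euclidean distance between centred log2(FPKM + 1) values over the 6 isolations, was that of Tbc1d10a (distance 0.123), with 47.2, 48.4 and 40.5 FPKM at P5 and 178, 123 and 109 at P30. The nearest to Serpinh1 was Ttyh3 (distance 0.0698), with 366, 399 and 351 FPKM at P5 and 197, 189.5 and 202 at P30. The nearest genes were Stox1 for P4ha1, Tmem214 for P4hb, Slc35b3 for Plod1, Senp6 for Plod2, Ndufa1 for Plod3, Nf2 for Lepre1, Rilpl1 for Crtap and Dcp1a for Ppib, at distances between 0.0563 and 0.144.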
